A study of Mus musculus with 33 samples.

Results

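The genes described here carry out or license DNA replication in S phase. They are 43 genes listed by symbol, and the list was chosen with earlier results of these data known. All 43 have a row in each of 4 expression tables of mouse mammary samples. Usable rows number 26230 for trichostatin A and likewise for tumors, 22853 for the guide RNA and 24186 for organoids. By role they fall into 11 genes of origin recognition and licensing, 5 of helicase activation, 7 of primase and polymerases, 7 of the sliding clamp, its loader and lagging strand joining, 5 of nucleotide supply, 5 of chromatin and methylation of new DNA, and 3 regulators of S phase entry. All 43 passed the filter on low values in each table.

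DNA replication starts at origins that the origin recognition complex, CDC6 and CDT1 load with the ring-shaped MCM helicase, which CDC45 and the GINS complex then activate. Primase and the DNA polymerases copy the strands, PCNA clamps the polymerases to DNA, and FEN1 and LIG1 finish the lagging strand, while ribonucleotide reductase and thymidylate enzymes supply the deoxynucleotides. Most of these genes are transcribed from late G1 into S phase under E2F transcription factors, so their mRNA is widely read as a sign of cells in cycle, also in the mammary epithelium.

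RNA-seq of 33 samples gave the expression values. Cells of HC11, an epithelial line from mouse mammary gland, received 300 nM trichostatin A (TSA), a histone deacetylase inhibitor, for 24 h or the solvent DMSO, with 3 libraries each. In another experiment, HC11 cells were given either sgTrps1, a guide targeting Trps1, or the scrambled sgScr, with 2 libraries and 1 guide per arm. Primary mammary organoids, transduced with an adenovirus that expresses Cre (AdCre), were harvested after 28 or 14 days and had 1 of 3 genotypes, Cdh1F/F;Trps1F/F, Cdh1+/F;Trps1F/F or Cdh1F/F;Trps1+/+, with 2 libraries per genotype and day. Tumors came from mice of the genotype WAP-cre;Cdh1F/F;Trps1F/F (8 tumors of 6 mice, called Trps1F/F tumors below) or WAP-cre;Cdh1F/F;Trps1+/+ (3 tumors of 3 mice, called Trps1+/+ tumors below). WAP-cre drives Cre from the whey acidic protein promoter, which is active in milk-producing mammary epithelium, so other cells of a tumor keep the floxed alleles. All organoid and tumor groups share at least 1 floxed allele of Cdh1, the gene of the adhesion protein E-cadherin, and the genotypes differ in Trps1, which encodes a transcriptional repressor of the GATA family, in the dose of Cdh1, or in both, as Cdh1+/F;Trps1F/F does from Cdh1F/F;Trps1+/+. The labels put the Trps1F/F tumors into subgroups 1 (4 tumors), 2 (2 tumors) and 3 (2 tumors). Mouse 18LCO025 gave 3 of the tumors, 2 of them in subgroup 1 and 1 in subgroup 3. The sources used here do not give how the subgroups were drawn, so it is not known whether expression itself defined them.

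Libraries held 17788566 to 25585997 reads in the TSA table, 21346514 to 38708003 in the guide table, 14833245 to 30305818 in the organoid table and 18304633 to 24192323 in the tumor table. Each table holds log2(normalized count + 1) and was normalized on its own, so levels below are normalized counts that can be set side by side only within a table. Trps1 had 1905 to 2009 counts in TSA and 15668 to 16654 in DMSO. With the guide against Trps1 its counts were 14786 and 15418, against 14212 and 15186 with the scrambled guide, so the mRNA does not check that guide, which acts on the DNA. In organoids Trps1 stood at 2123 to 2676 in Cdh1F/F;Trps1F/F, 700 to 1050 in Cdh1+/F;Trps1F/F and 11628 to 15949 in Cdh1F/F;Trps1+/+. Cdh1 had 12253 to 15724, 8413 to 11729 and 8629 to 12204 counts in the same order, so every Cdh1F/F;Trps1F/F library lay above every other organoid library. Its whole-gene count was thus higher in a genotype with both alleles floxed than in the one with 1 wild-type allele. The epithelial gene Epcam had 19932 to 20040 counts at day 14 and 19781 to 21059 at day 28 in Cdh1F/F;Trps1F/F. In Cdh1+/F;Trps1F/F it had 14649 to 15928 and 10101 to 11112, and in Cdh1F/F;Trps1+/+ 9869 to 10088 and 10195 to 10653. The part of epithelial content in the Cdh1 counts was not tested, so these counts do not check the Cdh1 labels. Counts over a whole floxed gene check a deletion only in part, and the genotypes are named below as labelled. HC11 libraries of both experiments held the basal keratin genes Krt5 and Krt14 and the epithelial gene Epcam. The luminal keratins differed from each other in the guide experiment. Krt18 had 0 to 0.527 counts there, while Krt8 had 412 to 434 in sgTrps1 and 562 to 646 in sgScr.

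The promoters of these genes are shown first as a description, and their part in the changes below was not tested. RefSeq windows of 250 bases before to 50 after the gene start (GRCm38.p6) were at hand for 36 of the 43 genes, in 43 windows. E2F-type letters (TTTCCCGC, TTTCGCGC, TTTGCCGC or TTTGGCGC, either strand) occurred in 16 of the 36 genes and in 37.2% of their windows, against 2.26% of the 32851 windows in the table. The letters TTCCCGCC, which overlap an E2F word wherever TTTCCCGCC occurs, were in 18.6% of the windows of these genes, against 2.19% of all windows. The CCAAT letters stood in 53.5% of their windows, against 37.4% of all. TTTGAA, the core of the CHR element of mitotic genes, was in 11.6%, against 17.9% of all. A match only says that the letters are in the window. Printed 5′ to 3′ on the strand of the gene are Mcm6 (chr1:128359656-128359955, minus strand), Mcm3 (chr1:20820263-20820562, minus), Mcm5 (chr8:75109259-75109558, plus) and Rrm1 (chr7:102441445-102441744, plus), chosen as examples of windows that hold these letters among genes described below. The windows of other genes that the results turn on, Rrm2, Chaf1b, Dut and Cdc45, hold neither the E2F nor the TTCCCGCC letters, and 20 of the 36 genes hold either. Tk1 (chr11:117825965-117826264, minus) is printed with them as the member with the largest fall in TSA, and its window holds none of them either. Capitals mark the E2F and TTCCCGCC letters on either strand, with overlapping matches run together.
Mcm6: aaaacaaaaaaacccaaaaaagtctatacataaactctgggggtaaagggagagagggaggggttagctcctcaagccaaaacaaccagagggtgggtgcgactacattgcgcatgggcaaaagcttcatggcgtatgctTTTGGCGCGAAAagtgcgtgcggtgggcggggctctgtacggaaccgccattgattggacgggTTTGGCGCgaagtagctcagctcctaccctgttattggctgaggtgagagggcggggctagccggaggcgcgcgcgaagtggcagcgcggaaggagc
Mcm3: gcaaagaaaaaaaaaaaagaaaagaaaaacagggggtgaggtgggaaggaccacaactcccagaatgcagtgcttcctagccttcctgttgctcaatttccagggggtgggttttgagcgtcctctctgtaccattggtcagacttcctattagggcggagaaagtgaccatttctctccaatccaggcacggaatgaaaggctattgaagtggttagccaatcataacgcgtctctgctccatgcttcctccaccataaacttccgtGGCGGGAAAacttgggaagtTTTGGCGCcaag
Mcm5: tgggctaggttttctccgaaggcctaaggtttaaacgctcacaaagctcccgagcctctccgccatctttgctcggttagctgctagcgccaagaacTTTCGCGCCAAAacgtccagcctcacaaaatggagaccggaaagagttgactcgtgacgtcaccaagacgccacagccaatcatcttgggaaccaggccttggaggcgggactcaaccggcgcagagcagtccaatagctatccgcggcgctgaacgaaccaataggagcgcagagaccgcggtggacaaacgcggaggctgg
Rrm1: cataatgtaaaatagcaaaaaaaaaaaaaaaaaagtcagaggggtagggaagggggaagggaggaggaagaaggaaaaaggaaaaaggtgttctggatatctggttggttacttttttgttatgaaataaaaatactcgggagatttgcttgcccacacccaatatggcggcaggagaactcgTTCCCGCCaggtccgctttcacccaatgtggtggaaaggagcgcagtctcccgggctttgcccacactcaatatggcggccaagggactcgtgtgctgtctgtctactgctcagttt
Tk1: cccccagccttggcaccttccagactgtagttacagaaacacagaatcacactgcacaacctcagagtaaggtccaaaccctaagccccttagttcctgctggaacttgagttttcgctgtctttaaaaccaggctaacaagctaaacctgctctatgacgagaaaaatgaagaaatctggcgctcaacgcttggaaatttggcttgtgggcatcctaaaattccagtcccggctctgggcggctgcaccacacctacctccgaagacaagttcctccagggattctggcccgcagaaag

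Replication genes fell in HC11 cells treated with TSA. Of the 43 genes, 38 fell and 2 rose at an adjusted p (limma, Benjamini-Hochberg over all tested genes) under 0.05, while 85.2% of the 13035 tested genes were called, 41.6% down and 43.6% up. The median log2 fold change, a difference of mean log2(normalized count + 1), was -0.92 for the 43 genes and 0.02 for all genes. Falls of at least 2-fold were found for 20 of the 43. Called falls covered 10 of 11 licensing genes (median -1.27), 5 of 5 of helicase activation (-0.93), 6 of 7 of primase and polymerases (-0.69), 5 of 7 of the clamp and lagging strand group (-0.75), 5 of 5 of nucleotide supply (-2.00), 4 of 5 of the chromatin group (-0.68) and 3 of 3 regulators (-1.52). With so many genes called in this experiment, the size and the direction of the changes say more than the count.

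Among the licensing genes, Mcm3 (chromosome 1, 20802968 to 20820312), a subunit of the MCM helicase, had 1187, 1301 and 1291 counts in TSA, against 5862, 6054 and 6149 in DMSO. Its log2 fold change was -2.26 (SE 0.0437, limma adjusted p = 1.10e-12), and the groups were far apart. The other subunits fell together with it, with log2 fold changes of -2.08 for Mcm6, -1.76 for Mcm5, -1.53 for Mcm2, -1.41 for Mcm4 and -1.27 for Mcm7. Cdc6 (-1.02) and Cdt1 (-0.89), which load the helicase, had smaller folds than the MCM subunits, and the origin complex genes Orc1 and Orc6 changed by -0.18 each. Gmnn, the inhibitor of CDT1, was not called (log2 fold change -0.08, adjusted p = 0.261).

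In helicase activation, Mcm10, which helps to start unwinding, had 539, 549 and 540 counts in TSA, against 1104, 1112 and 1197 in DMSO (log2 fold change -1.07, SE 0.0514, limma adjusted p = 1.69e-09). Pola1, the catalytic subunit of the priming polymerase alpha, had 1159, 1123 and 1150 counts in TSA, against 3461, 3300 and 3341 in DMSO (-1.56, SE 0.0383, adjusted p = 6.38e-12). The primase gene Prim1 changed much less (-0.17, adjusted p = 0.00136), and Pold1, the catalytic subunit of polymerase delta, was not called (0.04, adjusted p = 0.695). Lig1, the ligase that joins lagging strand fragments, had 1213, 1148 and 1296 counts in TSA, against 3127, 3463 and 3362 in DMSO (-1.44, SE 0.0532, adjusted p = 1.63e-10).

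Nucleotide supply had the lowest median of the 7 groups. Rrm1 (chromosome 7, 102441695 to 102469771), the large subunit of ribonucleotide reductase, had 2207, 2184 and 2325 counts in TSA, against 9060, 8997 and 8854 in DMSO (log2 fold change -2.00, SE 0.0368, limma adjusted p = 7.49e-13). The small subunit gene Rrm2 fell by a like amount (-2.13), and Tyms, which makes thymidylate, fell too (-1.68). The widest gap of the 43 genes was that of Tk1 (chromosome 11, 117815526 to 117826092), the S phase thymidine kinase, which was picked out after the values were seen. It had 109, 146 and 151 counts in TSA, against 2709, 2712 and 2921 in DMSO, a log2 fold change of -4.36 (SE 0.104, adjusted p = 5.15e-12). Per kilobase of exons, Tk1 thereby ranked last of the 43 in TSA at 26.0 ± 4.40 counts (SD, n = 3).

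In the chromatin group, Uhrf1, which brings the maintenance methylase to newly made DNA, had 2090, 2081 and 2106 counts in TSA, against 4361, 4467 and 4660 in DMSO (log2 fold change -1.10, SE 0.0372, limma adjusted p = 7.83e-11). Slbp, which binds the end of histone mRNA, was the remaining gene without a call (0.05, adjusted p = 0.266). Of the regulators, Ccne2, a cyclin E gene, had 424, 422 and 428 counts in TSA, against 1329, 1393 and 1467 in DMSO (-1.71, SE 0.0526, adjusted p = 3.56e-11). E2f1 (-1.52) and Ccne1 (-1.06) fell as well.

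The 2 genes that rose in TSA are subunits of the clamp loader and rose little. Rfc4 had 1072, 1073 and 1187 counts in TSA, against 1035, 877 and 829 in DMSO (log2 fold change 0.29, SE 0.0770, limma adjusted p = 0.00433), and the groups were close to each other. Rfc2 had 2046, 2063 and 2118 counts in TSA, against 1937, 1937 and 1963 in DMSO (0.09, SE 0.0365, adjusted p = 0.0315), and this call was lost without any filter on low values, under the replicate block and without any of 3 single libraries (DMSO replicate 2, TSA replicate 2 or TSA replicate 3). Both overlap a gene on the other strand, Rfc4 with Eif4a2 and Rfc2 with Lat2, and the sources used here do not give the strandedness of the libraries. Over the 28 genes with no such overlap, 26 fell and 0 rose (limma).

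Genes around the 43 moved likewise but not all in the same direction. Of 34 other replication genes, 22 fell and 11 rose, with the kinase activator gene Dbf4 at -1.91, the histone chaperone gene Nasp at -1.29, the checkpoint adaptor gene Topbp1 at -1.07 and the fourth GINS subunit gene Gins4 at 1.45. G1 and S regulators split into 18 falls and 10 rises of 29 tested, and included the cyclin D1 gene Ccnd1 (-4.67), its partner kinase Cdk4 (-1.85), the E2F partner gene Tfdp1 (-1.95) and the cell cycle inhibitor gene Cdkn1a (3.18). All 29 tested genes of G2 and mitosis fell (median -1.22), such as Cdk1 (-2.01), which encodes the mitotic kinase, and the transcription factor gene Foxm1 (-1.65). In bulk RNA, fewer cells in S phase and less of each mRNA per cell cannot be told apart, here or below.

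**Figure D1:**
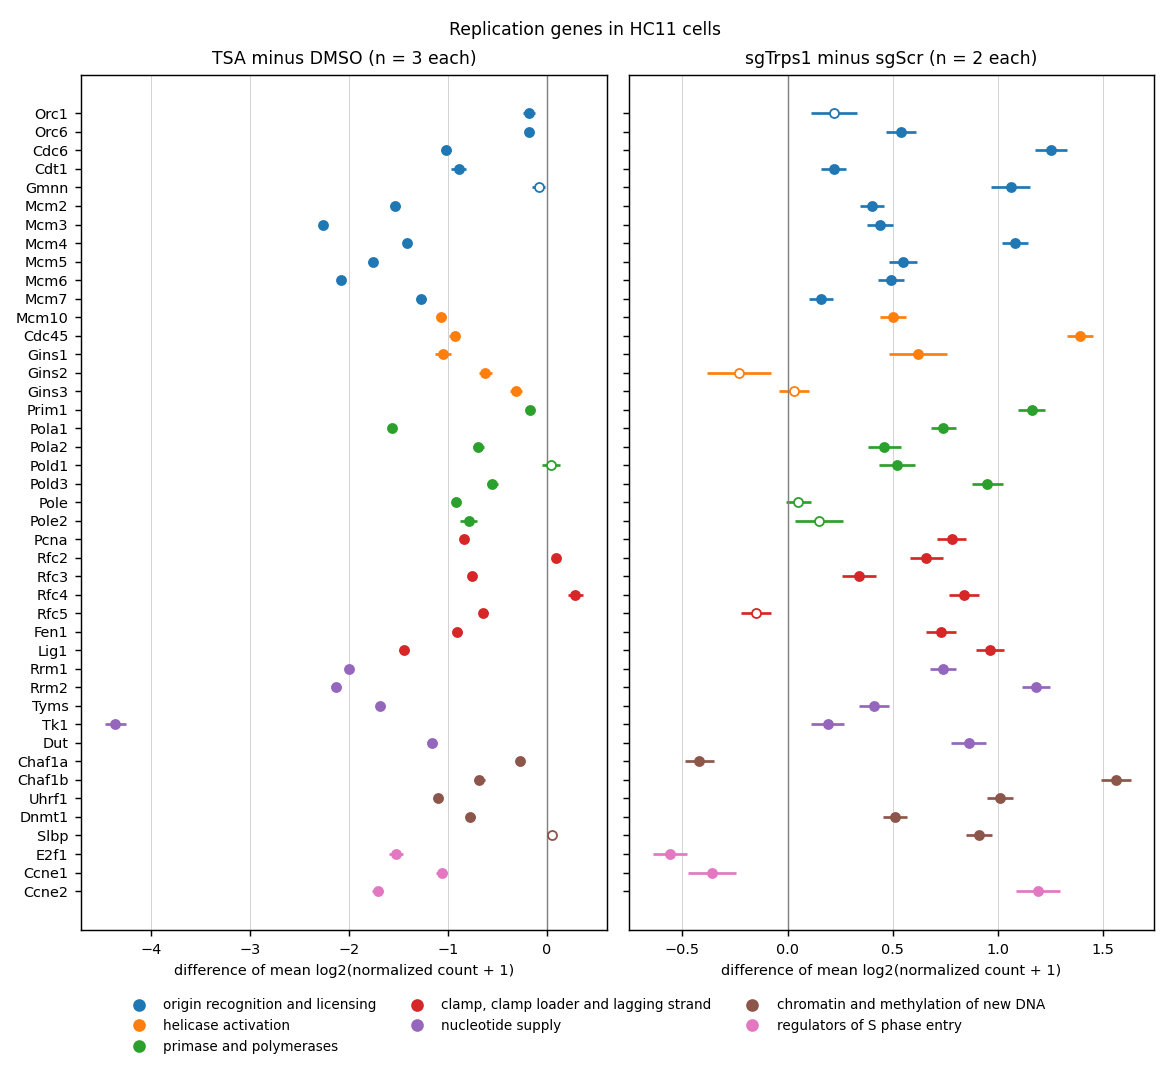
Log2 differences of the 43 replication genes (rows, coloured by role) in HC11 cells, for TSA minus DMSO (left) and sgTrps1 minus sgScr (right). Points are differences of mean log2(normalized count + 1), bars are standard errors, and filled points passed the limma test: 38 genes lie left of 0 and 2 right of it with TSA, while 34 lie right of 0 and 3 left of it with sgTrps1.

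Replication genes rose in HC11 cells with the guide against Trps1. Of the 43, 34 rose and 3 fell in sgTrps1 relative to sgScr, while 67.0% of 12552 tested genes were called, 34.6% up and 32.4% down. The median log2 fold change was 0.54 for the 43 genes and 0.02 for all genes, and 9 genes rose at least 2-fold. Called rises covered 10 of 11 licensing genes, 3 of 5 of helicase activation, 5 of 7 of primase and polymerases, 6 of 7 of the clamp group, 5 of 5 of nucleotide supply, 4 of 5 of the chromatin group and 1 of 3 regulators.

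Mcm4, an MCM subunit, had 4135 and 4362 counts in sgTrps1, against 2080 and 1934 in sgScr (log2 fold change 1.08, SE 0.0614, limma adjusted p = 4.26e-09). The other MCM subunits rose less, from 0.16 for Mcm7 to 0.55 for Mcm5, whereas Cdc6 (1.25) and Gmnn (1.06) rose at least as much as Mcm4 or nearly so. Cdc45, which joins the helicase when it fires, had 1429 and 1486 counts in sgTrps1, against 544 and 569 in sgScr (1.39, SE 0.0638, adjusted p = 5.05e-10). The GINS genes gave no common picture, with Gins1 called at 0.62, Gins2 at -0.23 and Gins3 at 0.03 not called. Prim1, the catalytic primase subunit, had 1603 and 1557 counts in sgTrps1, against 730 and 687 in sgScr (1.16, SE 0.0625, adjusted p = 2.56e-09), and Pole (0.05) and Pole2 (0.15), both of polymerase epsilon, were not called.

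Lig1 had 1013 and 1035 counts in sgTrps1, against 543 and 513 in sgScr (log2 fold change 0.96, SE 0.0667, limma adjusted p = 3.01e-08). The clamp gene Pcna rose by 0.78, and Rfc5 was the only gene of the clamp group without a call (-0.15, adjusted p = 0.0696). Rrm2 had 3328 and 3452 counts in sgTrps1, against 1599 and 1407 in sgScr (1.18, SE 0.0669, adjusted p = 4.32e-09), while Tk1 rose by 0.19. In the chromatin group, Chaf1b had 976 and 966 counts in sgTrps1, against 322 and 334 in sgScr, the largest rise of the 43 (1.56, SE 0.0699, adjusted p = 3.94e-10). Ccne2 had 291 and 324 counts in sgTrps1, against 127.7 and 141 in sgScr (1.19, SE 0.105, adjusted p = 3.09e-07).

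For each of the 3 genes that fell, a gene of the same family or complex rose, a pattern picked out after the values were seen. E2f1 had 312 and 294 counts in sgTrps1, against 438 and 456 in sgScr (log2 fold change -0.56, SE 0.0814, limma adjusted p = 3.54e-05). Its family members E2f2 (2.08) and E2f8 (1.56) rose. Chaf1a, the large subunit of the histone chaperone that CHAF1B belongs to, had 590 and 604 counts in sgTrps1, against 834 and 770 in sgScr (-0.42, SE 0.0694, adjusted p = 1.03e-04). Ccne1, the other cyclin E gene, had 135 and 127 counts in sgTrps1, against 160 and 177 in sgScr (-0.36, SE 0.114, adjusted p = 0.0126), and this call was lost when sgScr replicate 2 or either sgTrps1 library was left out.

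With 1 guide per arm, an effect of Trps1 and a difference between the 2 cell populations cannot be told apart. Of the tested cell type markers, 3 of 5 basal ones rose and 1 fell in sgTrps1, with a mean of the basal list of 7.14 to 7.41 on the log2 scale, against 6.38 to 6.58 in sgScr. Of 5 tested fibroblast markers 4 fell and 0 rose by limma (4.31 to 4.61 in sgTrps1, against 5.36 to 5.39 in sgScr). Of 6 tested luminal markers 4 fell and 2 rose (5.04 to 5.46 in sgTrps1, against 5.26 to 5.32 in sgScr), and the part of these shifts in the result was not tested. Genes of 2 chromosomes stood higher in sgTrps1 as a whole, since the 574 genes of chromosome 10 had a median log2 fold change of 0.42 and the 363 of chromosome 16 one of 0.32, against -0.16 to 0.09 on the other chromosomes. Mcm4, Cdc45, Rfc4 and Chaf1b are on chromosome 16 (median 1.23) and Prim1 is on chromosome 10 (1.16). Outside both chromosomes 29 of 38 replication genes rose and 3 fell, with a median of 0.50. Of the genes around them, 19 of 34 other replication genes rose and 1 fell, with the checkpoint gene Clspn at 1.15 and the RPA subunit gene Rpa3 at 1.00. G1 and S regulators rose in 14 and fell in 8 of 28 cases, led by the cyclin D2 gene Ccnd2 (2.94). Of 30 G2 and mitosis genes 29 rose and 0 fell by limma (median 0.86), among them the spindle motor gene Kif11 (1.44) and Cdk1 (1.35).

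In organoids, the highest levels of the 43 genes were those of Cdh1F/F;Trps1F/F at day 28. Averaged over the 43 genes on the log2 scale, the libraries stood at 9.44 to 9.60 in Cdh1F/F;Trps1F/F at day 28 and at 8.88 to 8.89 at day 14. Cdh1+/F;Trps1F/F organoids stood at 7.97 to 8.16 at day 28 and 8.16 to 8.21 at day 14. Cdh1F/F;Trps1+/+ organoids stood at 8.37 to 8.51 at day 28 and 8.48 to 8.51 at day 14. At both days the 2 genotypes with floxed Trps1, which differ from each other in Cdh1, thus lay on either side of the genotype with wild-type Trps1. The comparisons that follow use 1 fit of all 6 groups and share libraries, so they are not independent of each other.

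**Figure D2:**
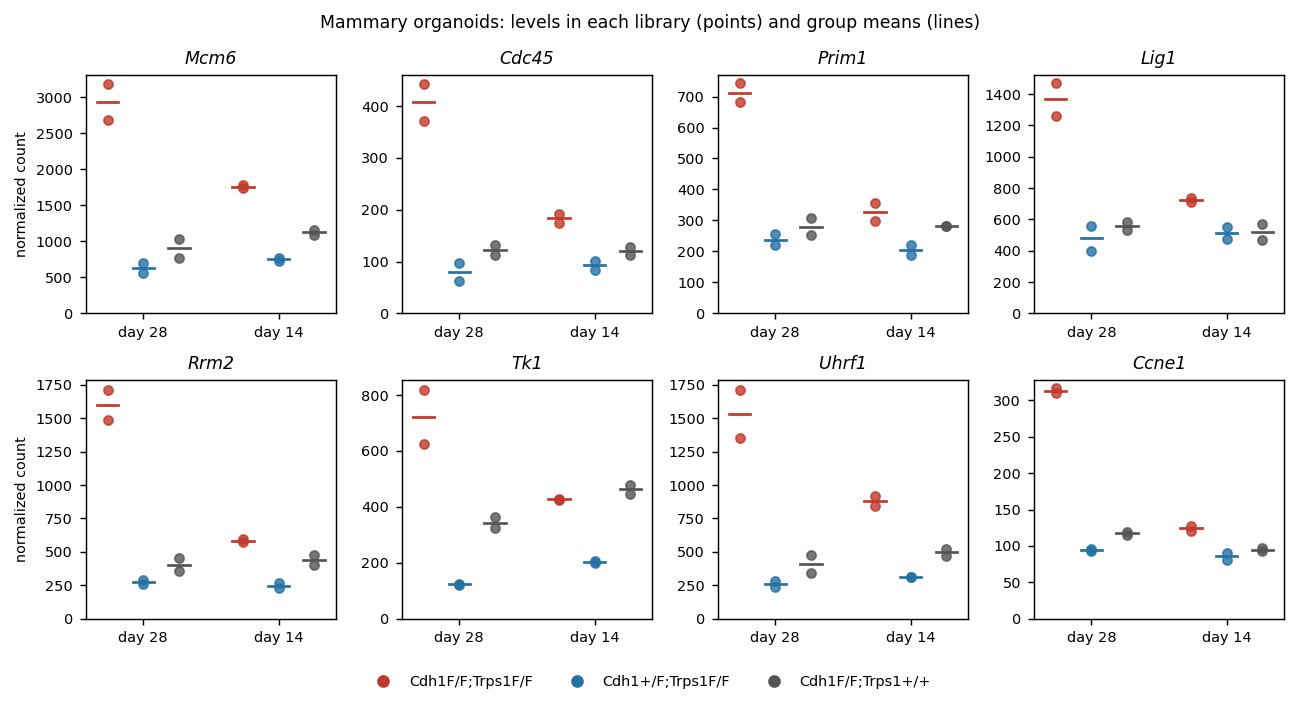
Normalized counts (vertical axis, from 0) of 8 replication genes in the 12 organoid libraries at day 28 and day 14, where points are libraries and lines are group means (n = 2). In Cdh1F/F;Trps1F/F at day 28 Rrm2 has 1714 and 1485 counts and Tk1 820 and 623, above every other library. The 8 genes were chosen for display after their values were seen.

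At day 28, 41 of 43 genes rose and 0 fell in Cdh1F/F;Trps1F/F relative to Cdh1F/F;Trps1+/+ (limma), while 43.2% of 15860 tested genes were called, 19.9% up and 23.4% down. The median log2 fold change was 1.13 for the 43 genes and -0.04 for all genes, and 24 rose at least 2-fold. For all 43, both Cdh1F/F;Trps1F/F libraries lay above both Cdh1F/F;Trps1+/+ libraries. The share of all genes with this order was not computed, and with 2 libraries per group chance often gives it. The 2 genes without a call were Dnmt1 (0.15, adjusted p = 0.152), the maintenance methylase, and E2f1 (0.33, adjusted p = 0.0677).

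Mcm4 had 2615 and 2366 counts in Cdh1F/F;Trps1F/F at day 28, against 1150 and 1064 in Cdh1F/F;Trps1+/+ (log2 fold change 1.17, SE 0.0848, limma adjusted p = 4.48e-07). The licensing genes as a group had a median of 1.32, with Mcm6 at 1.71 and the CDT1 inhibitor gene Gmnn at 1.61. Mcm10 had 393 and 288 counts, against 107 and 72.2 (1.93, SE 0.220, adjusted p = 1.78e-05), so the groups lay far apart. Prim1 had 743 and 682 counts in Cdh1F/F;Trps1F/F, against 308 and 252 in Cdh1F/F;Trps1+/+ (1.35, SE 0.144, adjusted p = 9.80e-06). Rfc5, a clamp loader subunit, had 672 and 608 counts in Cdh1F/F;Trps1F/F, against 339 and 301 in Cdh1F/F;Trps1+/+ (1.00, SE 0.113, adjusted p = 1.57e-05).

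Rrm1 had 3469 and 3264 counts in Cdh1F/F;Trps1F/F at day 28, against 1607 and 1472 in Cdh1F/F;Trps1+/+ (log2 fold change 1.13, SE 0.0791, limma adjusted p = 3.55e-07). The largest difference of the 43 was that of its partner Rrm2, with 1714 and 1485 counts, against 452 and 356 (1.99, SE 0.142, adjusted p = 4.05e-07). Uhrf1 had 1715 and 1350 counts in Cdh1F/F;Trps1F/F, against 474 and 344 in Cdh1F/F;Trps1+/+ (1.91, SE 0.155, adjusted p = 1.10e-06). Ccne1, the cyclin that starts S phase with CDK2, had 310 and 317 counts in Cdh1F/F;Trps1F/F, against 119 and 115 in Cdh1F/F;Trps1+/+ (1.41, SE 0.153, adjusted p = 1.12e-05).

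Other genes of the cycle rose as well. Over the 28 replication genes with no overlapping gene on the other strand, 26 rose (median 1.15). Of 34 other replication genes 26 rose and 1 fell, among them Ticrr (2.21), which loads CDC45, and Dbf4 (1.56), and of 30 regulators 17 rose and 3 fell, with Ccna2, the S phase cyclin gene, at 2.36 and Ccnd1 at 1.87. All 30 genes of G2 and mitosis rose, by a median of 2.13, which is more than that of the replication genes. Markers of other cell types moved the other way. All 10 fibroblast markers fell in Cdh1F/F;Trps1F/F at day 28, the mean of the list being 9.76 to 9.81 on the log2 scale, against 11.70 to 12.18 in Cdh1F/F;Trps1+/+, and all 8 skeletal muscle markers fell too (5.89 to 6.46, against 8.44 to 9.04). Of 9 macrophage markers 7 fell and 1 rose (6.40 to 6.81, against 7.67 to 7.87), and of 7 endothelial markers 3 fell and 2 rose (3.80 in both libraries, against 4.76 to 4.86). Luminal markers (4 up and 3 down of 10) and basal markers (1 up and 4 down of 8) were mixed. No marker of the fibroblast, macrophage, endothelial or muscle lists was at 0 in an organoid group, while 2 to 4 of 7 lymphocyte markers were, and the part of these cells in the result was not tested.

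At day 14 the same genotypes differed less. Of the 43 genes 19 rose and 0 fell in Cdh1F/F;Trps1F/F (limma, with 25 at an unadjusted p under 0.05), while 32.4% of 15860 genes were called, 14.5% up and 17.9% down, and the medians were 0.40 for the 43 and -0.01 for all genes. The count was 12 without either of the 2 Cdh1F/F;Trps1F/F libraries. Chaf1b had 488 and 466 counts in Cdh1F/F;Trps1F/F, against 248 and 244 in Cdh1F/F;Trps1+/+ (log2 fold change 0.95, SE 0.128, limma adjusted p = 9.77e-05). Mcm4 had 1538 and 1634 counts in Cdh1F/F;Trps1F/F, against 1108 and 1040 in Cdh1F/F;Trps1+/+ (0.56, SE 0.0848, adjusted p = 2.46e-04), and 8 of 11 licensing genes were called, among them Cdc6 (0.88) and Cdt1 (0.79).

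Pola2, the regulatory subunit of polymerase alpha, had 548 and 560 counts in Cdh1F/F;Trps1F/F at day 14, against 322 and 391 in Cdh1F/F;Trps1+/+ (log2 fold change 0.64, SE 0.113, limma adjusted p = 7.93e-04). Rrm1 (1875 and 1841, against 1551 and 1491), Lig1 (712 and 734, against 468 and 574) and Cdc45 (175 and 192, against 127.5 and 113) passed by small margins, with adjusted p = 0.0135, 0.0296 and 0.0423 by limma. The calls of all 3 were lost without Cdh1F/F;Trps1F/F replicate 1 or 2, that of Rrm1 also without Cdh1F/F;Trps1+/+ library b, that of Lig1 also without Cdh1F/F;Trps1+/+ library a, and that of Cdc45 also without either of these. Lig1 and Cdc45 lost theirs with no filter on low values as well. Tk1 had 429 and 425 counts, against 447 and 478 (-0.12), and no regulator of S phase entry was called. All 10 fibroblast markers (11.30 in both libraries, against 12.93 to 13.11 on the log2 scale), all 8 muscle markers and all 9 macrophage markers fell at day 14 too, and their part in the result was not tested.

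Organoids with floxed Trps1 and 1 wild-type allele of Cdh1 went the other way. At day 28, 21 of the 43 genes fell and 1 rose in Cdh1+/F;Trps1F/F relative to Cdh1F/F;Trps1+/+, while 53.3% of tested genes were called, 24.7% down and 28.6% up, and the medians were -0.37 for the 43 and 0.03 for all genes. The count of calls was 13 without Cdh1F/F;Trps1+/+ library a and 14 without Cdh1+/F;Trps1F/F library a. After quantile normalization, all genes together split into 3733 up and 5192 down, against 4541 up and 3912 down as tested.

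Tk1 differed most, with 125 and 121 counts in Cdh1+/F;Trps1F/F at day 28, against 364 and 323 in Cdh1F/F;Trps1+/+ (log2 fold change -1.47, SE 0.134, limma adjusted p = 1.28e-06). Fen1, the flap nuclease of lagging strand processing, had 224 and 280 counts, against 516 and 492 (-1.01, SE 0.127, adjusted p = 2.43e-05). Chaf1a had 191 and 217 counts in Cdh1+/F;Trps1F/F, against 343 and 327 in Cdh1F/F;Trps1+/+ (-0.72, SE 0.111, adjusted p = 1.41e-04). In these 3 genes the groups were widely separated, which follows in part from their choice by p.

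Mcm7 had 913 and 1109 counts in Cdh1+/F;Trps1F/F at day 28, against 1448 and 1468 in Cdh1F/F;Trps1+/+ (log2 fold change -0.53, SE 0.0970, limma adjusted p = 4.94e-04). Pold1 had 152 and 125 counts, against 270 and 275 (-0.98, SE 0.184, adjusted p = 6.17e-04), and Gins2, of the GINS complex, had 125 and 111, against 181 and 162 (-0.54, SE 0.165, adjusted p = 0.0148, lost without Cdh1F/F;Trps1+/+ library a or Cdh1+/F;Trps1F/F library b). Rrm1 was the gene that rose, with 1784 and 1905 counts in Cdh1+/F;Trps1F/F, against 1607 and 1472 in Cdh1F/F;Trps1+/+ (0.26, SE 0.0791, adjusted p = 0.0140), a call that was lost with libraries shifted to a common median, without Cdh1F/F;Trps1+/+ library b and without Cdh1+/F;Trps1F/F library b. Its partner Rrm2 fell by 0.54 at the same time.

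Here the fibroblast markers were higher, 9 of 10 called up, with list means of 14.91 to 15.14 in Cdh1+/F;Trps1F/F at day 28, against 11.70 to 12.18 in Cdh1F/F;Trps1+/+. All 8 muscle markers were up (11.79 to 12.14, against 8.44 to 9.04) and of 10 luminal markers 6 fell and 1 rose (10.50 to 10.76, against 11.31 to 11.45). Their part in the lower replication genes was not tested.

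At day 14, 14 of the 43 genes fell and 0 rose in Cdh1+/F;Trps1F/F relative to Cdh1F/F;Trps1+/+ (limma, with 19 at an unadjusted p under 0.05), while 36.3% of genes were called, 17.4% down and 18.9% up, and the medians were -0.27 for the 43 and 0.02 for all genes. Without Cdh1F/F;Trps1+/+ library b the count was 9. Tk1 had 205 and 200 counts, against 447 and 478 (log2 fold change -1.19, SE 0.134, limma adjusted p = 1.84e-05), Fen1 331 and 338, against 543 and 576 (-0.74), and Gmnn 132 and 137, against 252 and 212 (-0.78, adjusted p = 0.00363). In these 3 genes the genotypes did not overlap. Uhrf1 had 309 and 313 counts in Cdh1+/F;Trps1F/F, against 472 and 519 in Cdh1F/F;Trps1+/+ (-0.67, adjusted p = 0.00447). Ccne2 had 41.5 and 39.7 counts in Cdh1+/F;Trps1F/F, against 84.7 and 85.4 in Cdh1F/F;Trps1+/+ (-1.05, SE 0.268, adjusted p = 0.00816). Prim1 (220 and 189, against 282 in both, log2 fold change -0.47, adjusted p = 0.0226) lost its call without any of 3 of the 4 libraries, Cdh1+/F;Trps1F/F library a being the exception. Of 10 fibroblast markers 8 rose (15.12 to 15.18, against 12.93 to 13.11), and their part was not tested.

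Set against each other, the genotypes with floxed Trps1 differed in all 43 genes at day 28, each higher in Cdh1F/F;Trps1F/F than in Cdh1+/F;Trps1F/F (56.7% of all genes were called, 27.7% up and 29.0% down). The medians were 1.46 for the 43 and 0.02 for all genes, and 33 genes differed at least 2-fold. Under quantile normalization the median of all genes was 0.15 and that of the 43 was 1.59, and all genes split into 5948 up and 3682 down, against 4395 up and 4598 down as tested.

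Dut, which removes dUTP before it enters DNA, had 1015 and 959 counts in Cdh1F/F;Trps1F/F at day 28, against 243 and 280 in Cdh1+/F;Trps1F/F (log2 fold change 1.91, SE 0.100, limma adjusted p = 4.42e-09). Mcm6 had 3185 and 2682 counts in Cdh1F/F;Trps1F/F, against 557 and 696 in Cdh1+/F;Trps1F/F (2.23, SE 0.140, adjusted p = 2.30e-08). Chaf1a had 803 and 716 counts in Cdh1F/F;Trps1F/F, against 191 and 217 in Cdh1+/F;Trps1F/F (1.89, SE 0.111, adjusted p = 1.25e-08). In all 3 genes the genotypes lay far apart, which follows in part from their choice by p.

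Cdc45 had 442 and 372 counts in Cdh1F/F;Trps1F/F at day 28, against 63.1 and 97.9 in Cdh1+/F;Trps1F/F (log2 fold change 2.35, SE 0.210, limma adjusted p = 6.77e-07). Prim1 (1.58), Fen1 (1.69) and Ccne1 (1.72, 310 and 317 counts, against 96.1 and 92.5) followed the same order. At day 14, 33 of 43 were higher in Cdh1F/F;Trps1F/F and 0 lower (limma, with 36 at an unadjusted p under 0.05), while 40.6% of genes were called, 19.0% up and 21.6% down, with medians of 0.68 and 0.01. After quantile normalization all genes split into 3899 up and 2861 down at day 14, against 3016 up and 3422 down as tested, and 38 of the 43 were higher. Dut (660 and 618 counts, against 308 and 318, log2 fold change 1.03), Mcm3 (1197 and 1152, against 565 and 578, log2 fold change 1.04) and Uhrf1 (915 and 842, against 309 and 313, log2 fold change 1.49) had the smallest p there. Pole2 (309 and 344, against 194 and 199), Fen1 (622 and 583, against 331 and 338) and Mcm10 (198 and 155, against 76.7 and 86.7) were also called, with the groups apart. Ccne1 (127.9 and 120, against 90.2 and 80.7) lost its call without Cdh1F/F;Trps1F/F replicate 1 or Cdh1+/F;Trps1F/F library b.

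The fibroblast list differed even more between these genotypes, at 9.76 to 9.81 in Cdh1F/F;Trps1F/F and 14.91 to 15.14 in Cdh1+/F;Trps1F/F at day 28, with all 10 markers lower, and 8 of 8 muscle markers were lower too. Of 10 luminal markers 7 were higher and 0 lower by limma in Cdh1F/F;Trps1F/F at day 28. Between these genotypes, fibroblast and muscle markers were thus lower where the replication genes were higher. The part of these cell type differences in the result was not tested.

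Between the days, replication genes rose in Cdh1F/F;Trps1F/F organoids. At day 28 relative to day 14, 34 of 43 rose and 0 fell (limma, with 36 at an unadjusted p under 0.05), while 35.4% of genes were called, 14.8% up and 20.6% down. The medians were 0.59 for the 43 and -0.03 for all genes. Rrm2, which the naming rule did not pick here, had the largest rise (1.45, with 1714 and 1485 counts at day 28, against 576 and 593 at day 14). Ccne1 had 310 and 317 counts at day 28, against 127.9 and 120 at day 14 (log2 fold change 1.33, SE 0.153, limma adjusted p = 6.25e-05). Rrm1 had 3469 and 3264 counts at day 28, against 1875 and 1841 at day 14 (0.86, SE 0.0791, adjusted p = 1.44e-05). Both days were clear of each other in these genes.

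Prim1 (743 and 682 counts at day 28, against 299 and 357 at day 14, log2 fold change 1.12), Cdc45 (442 and 372, against 175 and 192, log2 fold change 1.14) and Lig1 (1471 and 1263, against 712 and 734, log2 fold change 0.91) rose in both libraries. Uhrf1 (1715 and 1350, against 915 and 842, log2 fold change 0.79) and Mcm4 (2615 and 2366, against 1538 and 1634, log2 fold change 0.65) rose as well. The 9 genes without a call included Cdt1 (-0.23), Mcm2 (0.10) and Mcm7 (0.17) of licensing and Pold1 (-0.12). Of 34 other replication genes 22 rose and 0 fell by limma, led by the kinase gene Cdc7 (1.23), and 30 of 30 G2 and mitosis genes rose (median 1.72). Fibroblast markers fell in 8 of 10 cases, with 9.76 to 9.81 at day 28, against 11.30 in both libraries at day 14, and their part was not tested.

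The other genotypes did not show this rise. In Cdh1F/F;Trps1+/+ 1 gene rose and 2 fell (25.9% of all genes called, 11.1% up and 14.7% down), with medians of -0.05 and 0.01. Dnmt1 had 3375 and 3216 counts at day 28, against 2435 and 2657 at day 14 (log2 fold change 0.37, SE 0.0811, limma adjusted p = 0.00492, lost without day 14 library a). Dut had 449 and 446 counts at day 28, against 564 and 572 at day 14 (-0.34, adjusted p = 0.0236), lost without any of the 4 libraries and in a fit of the 2 groups alone. Tk1, with 364 and 323 counts at day 28, against 447 and 478 at day 14, fell by 0.43. The number of calls was 0 without day 14 library a, 1 without day 14 library b or day 28 library b, and 6 without day 28 library a. In the same organoids 7 of 10 fibroblast markers fell and 1 rose, with list means of 11.70 to 12.18 at day 28, against 12.93 to 13.11 at day 14. The part of these cells in the values of the replication genes was not tested.

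In Cdh1+/F;Trps1F/F 11 genes fell and 3 rose between the days (40.8% of all genes called, 20.3% down and 20.5% up), with medians of -0.11 and 0.04. The share of the 43 that was called, 32.6%, was thus below that of all genes. The count was 5 without day 14 library a and 7 without day 28 library a. Pold1 had 152 and 125 counts at day 28, against 325 and 234 at day 14 (SE of the log2 fold change 0.184, limma adjusted p = 0.00123). Tk1 had 125 and 121 counts at day 28, against 205 and 200 at day 14 (-0.72, SE 0.134, adjusted p = 0.00137), and Rfc5 had 218 and 246, against 344 and 347 (-0.57, SE 0.113, adjusted p = 0.00179). The days did not overlap in these genes.

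Chaf1a had 191 and 217 counts at day 28, against 295 and 289 at day 14 (-0.52, limma adjusted p = 0.00302). Mcm2 (502 and 533, against 683 and 677) and Gins2 (125 and 111, against 193 and 169) each lost their call without 1 of 2 libraries, day 14 library a being such a library for both, day 28 library a for Mcm2 and day 28 library b for Gins2. The rises were those of Rrm1 (1784 and 1905, against 1356 and 1483, log2 fold change 0.38, adjusted p = 0.00264), Gins3 (144 and 150, against 97.4 and 104, log2 fold change 0.55, adjusted p = 0.0238) and Chaf1b (311 and 298, against 246 and 235, log2 fold change 0.34, adjusted p = 0.0487). The last 2 lost their call without any of the 4 libraries. Muscle markers rose in 7 of 8 cases (11.79 to 12.14 at day 28, against 10.27 to 10.42 at day 14), 5 of 10 luminal markers fell, and their part was not tested.

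**Figure D3:**
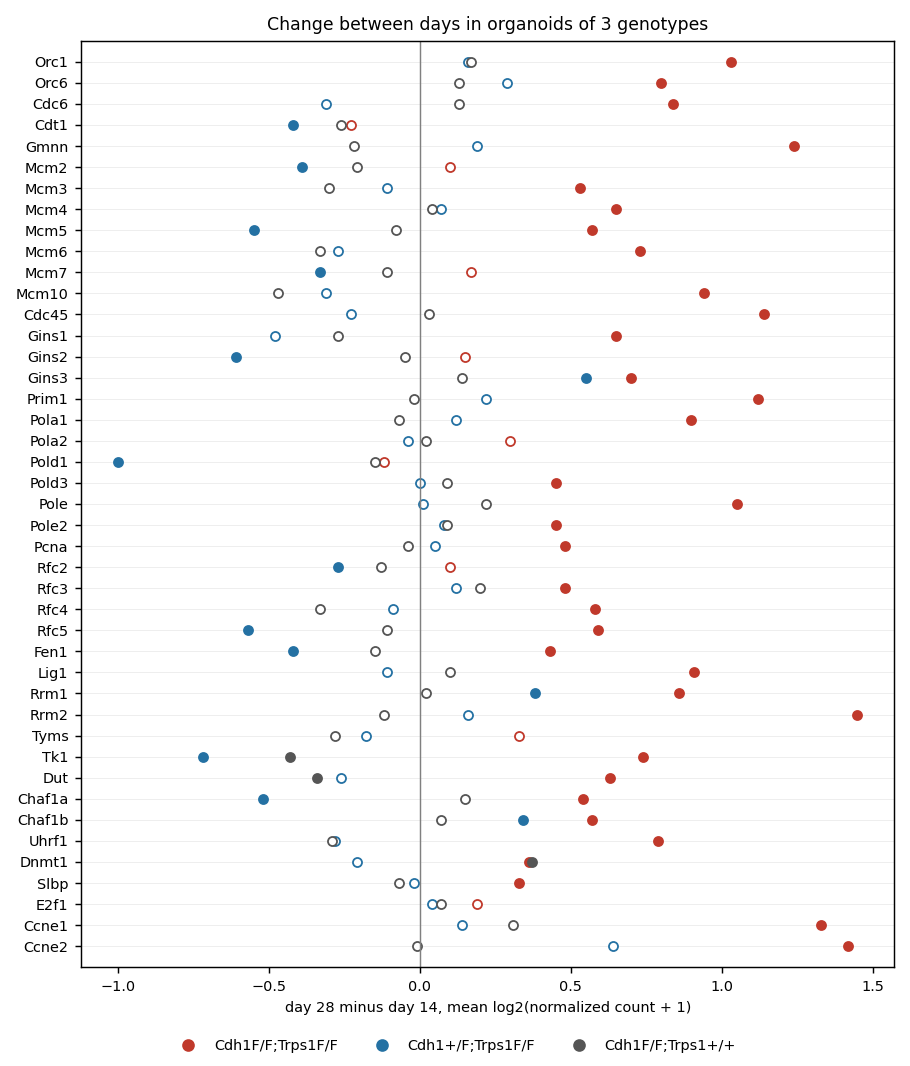
Day 28 minus day 14 in mean log2(normalized count + 1) for each of the 43 replication genes (rows) in organoids of 3 genotypes, filled where the limma test passed. Filled points are at positive values for 34 genes in Cdh1F/F;Trps1F/F, and in Cdh1F/F;Trps1+/+ 3 points are filled.

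The difference between genotypes in the change with time was tested itself. The change in Cdh1F/F;Trps1F/F exceeded that in Cdh1F/F;Trps1+/+ for 23 of 43 genes and was below it for 0 (limma interaction, with 31 at an unadjusted p under 0.05), while 17.9% of genes were called, 8.22% up and 9.72% down, and the medians were 0.67 and -0.01. Rrm2 had the smallest p (difference of log2 changes 1.57, SE 0.201, limma adjusted p = 5.96e-04), with 1714 and 1485 counts at day 28 and 576 and 593 at day 14 in Cdh1F/F;Trps1F/F, and 452 and 356 and then 400 and 474 in Cdh1F/F;Trps1+/+. Gmnn had 582 and 624 counts at day 28 and 233 and 276 at day 14 in Cdh1F/F;Trps1F/F, and 206 and 189 and then 252 and 212 in Cdh1F/F;Trps1+/+ (1.47, SE 0.246, adjusted p = 0.00244). In Cdh1F/F;Trps1+/+ the 2 days overlapped for Rrm2, and for Gmnn day 28 lay below day 14. Prim1 (1.14), Uhrf1 (1.09), Ccne1 (1.02), Mcm10 (1.41) and Rfc4 (0.90) were called in their groups. The count was 13 without Cdh1F/F;Trps1F/F day 14 replicate 1, where Rfc4 was among the lost calls, and 15 without Cdh1F/F;Trps1+/+ day 28 library b.

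Against Cdh1+/F;Trps1F/F, the change in Cdh1F/F;Trps1F/F was higher for 30 of 43 genes and lower for 0 (limma interaction, with 34 at an unadjusted p under 0.05), while 19.2% of genes were called, 7.43% up and 11.7% down, and the medians were 0.78 and -0.01. Tk1 (1.46, SE 0.190, limma adjusted p = 2.27e-04), with 820 and 623 counts at day 28 and 429 and 425 at day 14 in Cdh1F/F;Trps1F/F, moved in opposite directions, since it had 125 and 121 and then 205 and 200 in Cdh1+/F;Trps1F/F. Rfc5 (1.16, adjusted p = 3.23e-04) and Chaf1a (1.06, adjusted p = 5.62e-04) likewise rose in 1 genotype and fell in the other. Ccne1 (1.19), Cdc45 (1.37), Mcm5 (1.12) and Prim1 (0.90) were the other genes named by role. Without Cdh1+/F;Trps1F/F day 28 library a the count was 19. Both interactions share the Cdh1F/F;Trps1F/F libraries.

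**Figure D4:**
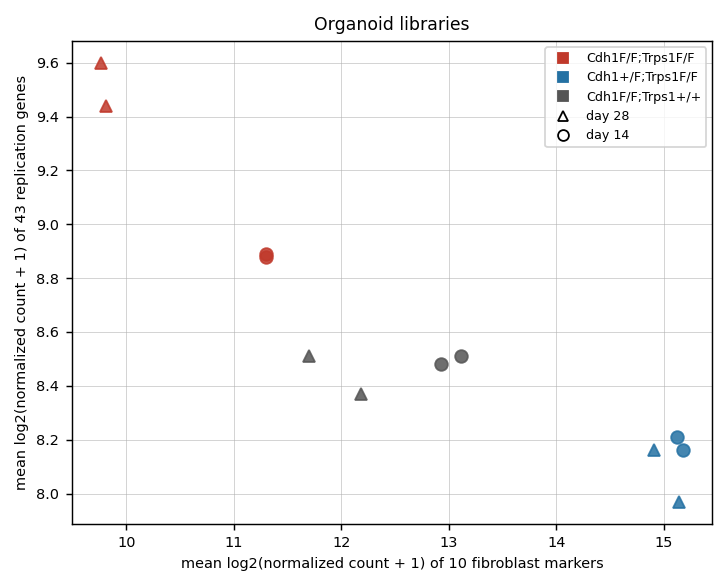
Mean log2(normalized count + 1) of the 43 replication genes (vertical) against that of 10 fibroblast markers (horizontal) in the 12 organoid libraries. At day 28, the replication and fibroblast means are 9.44 to 9.60 and 9.76 to 9.81 in Cdh1F/F;Trps1F/F, 7.97 to 8.16 and 14.91 to 15.14 in Cdh1+/F;Trps1F/F, and 8.37 to 8.51 and 11.70 to 12.18 in Cdh1F/F;Trps1+/+.

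Levels per kilobase of exons were ranked within each group, as a description. Pcna ranked highest of the 43 in all 6 organoid groups, at 941 ± 85.3 counts per kilobase (SD, n = 2) in Cdh1F/F;Trps1F/F, 459 ± 49.6 in Cdh1+/F;Trps1F/F and, at 570 ± 7.83, in Cdh1F/F;Trps1+/+ at day 28, and it also ranked highest in both tumor genotypes. Pcna has named pseudogenes that could share its reads. Mcm5 ranked highest with either guide, at 1424 ± 14.6 counts per kilobase (SD, n = 2) in sgTrps1 and 974 ± 79.1 in sgScr. In HC11 cells with TSA Dnmt1 ranked highest (1019 ± 9.32, SD, n = 3), and with DMSO Rrm2 did (2979 ± 147). Dnmt1, the gene with the smallest difference between these genotypes at day 28, ranked 6 on this scale in Cdh1F/F;Trps1F/F (3762 and 3557 normalized counts) and 2 in Cdh1F/F;Trps1+/+ (3375 and 3216). The licensing gene Orc1 ranked 41 in all 6 organoid groups.

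In tumors, the genotypes were not separated by the replication genes. Of the 43, 0 were called in Trps1F/F relative to Trps1+/+ tumors with mice as replicates (limma, 6 and 3 mice, with 1 at an unadjusted p under 0.05), and 0 by limma voom on the reads recovered from the values. Of all 15085 tested genes 0% were called. The medians were -0.16 for the 43 and 0.00 for all genes. Pold3, a subunit of polymerase delta, had the smallest p: by mouse, its lowest, median and highest counts were 777, 900 and 938 in Trps1F/F and 679, 688 and 719 in Trps1+/+ (log2 fold change 0.33, SE 0.116, unadjusted p = 0.0187, limma adjusted p = 0.803). The mouse means of the 2 genotypes did not overlap in this gene, but the single tumors did. A tumor of mouse 18LCO025 had 657.0 counts, below all Trps1+/+ tumors, and was averaged with tumors of that mouse at 816.8 and 872.5. Rrm2 had 397, 703 and 1500 counts by mouse in Trps1F/F and 926, 1158 and 1376 in Trps1+/+ (-0.58, SE 0.399, adjusted p = 0.803). Rrm1 had 1766, 2052 and 3698 counts in Trps1F/F and 2507, 2771 and 3164 in Trps1+/+ (-0.32, SE 0.226, adjusted p = 0.803). In both, the Trps1F/F mice spanned the Trps1+/+ range on either side. By mouse, the fibroblast list stood at 12.56 to 14.70 in Trps1F/F and 14.75 to 15.86 in Trps1+/+ on the log2 scale, with 0 of 10 markers called, and its part in these values was not tested. Trps1 itself ranged from 954 to 6353 counts in Trps1F/F tumors and from 2821 to 7878 in Trps1+/+ tumors, so its whole-gene count did not separate the genotypes. Cdh1, floxed in both, ranged from 89 to 13639 counts in Trps1F/F tumors and from 129 to 1599 in Trps1+/+ tumors.

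The spread among Trps1F/F tumors was wide, and the tumors of subgroup 1 lay below those of subgroups 2 and 3, which overlapped. The mean of the 43 genes on the log2 scale was 8.13 to 8.89 in the 4 tumors of subgroup 1, 8.96 and 9.49 in subgroup 2, and 9.37 and 9.92 in subgroup 3, against 8.86, 9.37 and 9.50 in Trps1+/+. Mouse 18LCO025 had both kinds, with 8.13 and 8.58 in its tumors of subgroup 1 and 9.37 in its tumor of subgroup 3.

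Subgroup 1 had 4 replication genes lower than Trps1+/+ tumors and 0 higher (limma on mouse means, 3 mice each, with 17 at an unadjusted p under 0.05), while 15.6% of 15725 genes were called, 6.70% down and 8.91% up, so the share of the 43 that fell is close to that of all genes. The medians were -0.57 for the 43 and 0.01 for all genes. E2f1 had 363 counts in mouse 17LCO103, 351 in 18LCO003, and 217 and 296 in 18LCO025, against 553, 683 and 752 in Trps1+/+ (log2 fold change -1.04, SE 0.209, limma adjusted p = 0.0138). Cdc45 had 230, 196, 99.3 and 164 counts in the same tumors, against 440, 592 and 597 in Trps1+/+ (-1.58, SE 0.324, adjusted p = 0.0150). Rrm2 had 637, 397, 220 and 439 counts, against 926, 1376 and 1158 in Trps1+/+ (-1.41, SE 0.339, adjusted p = 0.0272). Every tumor of subgroup 1 lay below every Trps1+/+ tumor in these genes. They were picked for the smallest p in their roles, so this separation follows in part from the choice.

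Dut was the other call (-1.19, adjusted p = 0.0340 by limma). The number of calls was 2 without mouse 18LCO003, 1 without 18LCO025, 7 without the Trps1+/+ mouse 18LCO046, and 0 without the Trps1+/+ mouse 18LCO114 or 18LCO128. The call of Cdc45 was among those lost without 18LCO025, and that of Rrm2 among those lost without 18LCO003 or 18LCO025. Of the other lists, 2 of 34 replication genes fell and 1 rose, 6 of 30 regulators fell, among them E2f8 (-3.31) and E2f7 (-2.01), and 5 of 29 G2 and mitosis genes fell, among them Cdc20 (-1.68) and Foxm1 (-1.64). Luminal markers differed strongly along with these genes, with 5 of 10 called higher in subgroup 1 and list means of 11.23 to 11.68 in its tumors, against 5.64 to 9.69 in Trps1+/+. The epithelial gene Epcam had 20314 to 27741 counts in subgroup 1, against 20.4 to 2536 in Trps1+/+, and 39.3 to 52.8 in subgroup 2 and 49.7 to 86.1 in subgroup 3. Of 10 fibroblast markers 2 fell in subgroup 1, and of 10 macrophage markers 3 fell and 1 rose. The part of cell makeup in the lower replication genes was not tested.

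**Figure D5:**
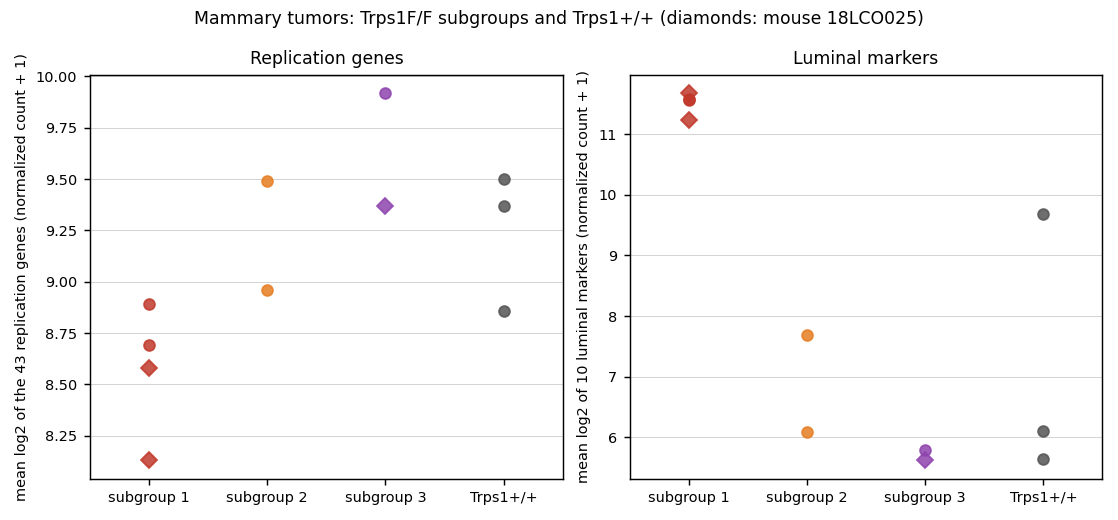
Mean log2(normalized count + 1) per tumor of the 43 replication genes (left) and of 10 luminal markers (right), by subgroup of Trps1F/F tumors and in Trps1+/+ tumors, where diamonds are the 3 tumors of mouse 18LCO025. Subgroup 1 lies at 8.13 to 8.89 for the replication genes, against 8.86 to 9.50 in Trps1+/+, and at 11.23 to 11.68 for the luminal markers, against 5.64 to 9.69.

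Subgroups 2 and 3 had 0 calls among the 43 genes (limma, 2 and 2 mice against 3, and 0 by limma voom). In subgroup 2, 1 gene had an unadjusted p under 0.05, 0% of all genes were called and the medians were 0.02 and -0.01. Pold3 had 881 and 920 counts in subgroup 2, against 688, 679 and 719 in Trps1+/+ (log2 fold change 0.37, limma adjusted p = 0.334). Rrm1 had 1766 and 2443, against 2507, 3164 and 2771 (-0.43, adjusted p = 0.383), and Dut had 2003 and 1266, against 760, 1193 and 1229 (0.62, adjusted p = 0.468). In these 3 genes subgroup 2 did not overlap with Trps1+/+ tumors. They were picked for the smallest p of the 43, so this separation follows in part from the choice.

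In subgroup 3, 5 genes had an unadjusted p under 0.05, 0.00636% of all genes were called, and the medians were 0.39 and -0.00. Orc6 had 739 and 1093 counts in subgroup 3, against 345, 507 and 440 in Trps1+/+ (log2 fold change 1.08, SE 0.230, limma adjusted p = 0.662). Gins3 had 263 and 329, against 136, 136 and 127 (1.14, SE 0.331, adjusted p = 0.721), and Prim1 had 736 and 938, against 292, 611 and 365 (1.04, SE 0.334, adjusted p = 0.755). Both tumors lay above all 3 Trps1+/+ tumors in each, but these genes too were picked for the smallest p.

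Across the 15 comparisons other than the interactions, Rrm2, Tk1 and Dut were called most often, 10 times each. Rrm2 was up 6 times and down 4, and Tk1 and Dut were up 5 and down 5 times. Slbp (4 up) and E2f1 (1 up, 3 down) were called least often, and each of the 43 was called in at least 1 comparison. The comparisons share libraries, so these totals are a description.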

How the data were processed

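RNA-seq was run on 33 samples. The deposited tables hold log2(normalized count + 1) per gene, as the values show, and each was normalized by the authors on its own. Reads were processed with TopHat and HTSeq on GRCm38, per the submitters' processing notes, and the sources used here do not give versions or strandedness. Whole reads could be recovered for 100% of values (within 0.01 reads or 1e-05 of the value), which gives the depths. Dropped from each table were 14 rows whose symbols had become dates, and 1 row without a symbol in the guide and in the organoid table. No per-sample column was left unused.

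Tests were run on the deposited log2 values by limma 3.58.1 (R 4.3.3), over all genes whose normalized count + 1 reached 10 in a number of libraries no lower than the size of the smallest group, with Benjamini-Hochberg adjustment and a threshold of 0.05. Organoids were fitted as 6 groups, and tumors as means per mouse. Of 12 organoid columns, 8 share a header with another, so those replicates are called library a and b. The labels do not say that replicates of HC11 cells and organoids came from separate cultures, and p-values may then measure technical spread. Same-numbered libraries did not deviate together in the TSA table (correlations of -0.08 to -0.00). The correlation was -0.19 in the guide table and -0.03 in the organoids, and 0.19 and 0.03 with the numbers crossed. With 2 libraries per group these are mirror values, so they cannot decide whether libraries are paired. The main tests have no block.

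The 43 genes, the other gene lists and the cell type markers were chosen with earlier results of these data known. Levels in every library are given for the called gene with the smallest p in each role, for up to 4 called against the majority, and for the 3 smallest p where under 3 were called. Where groups lie apart in genes picked this way, the separation follows in part from the choice. Alternatives were no filter, a common median, quantile normalization, a pseudocount of 5, limma voom on recovered reads, replicate blocks, other sets of groups or tumors, and leaving out each library or mouse. Gene positions come from GENCODE and promoters from RefSeq (GRCm38.p6). A count of 3 reads corresponds to 1.55 to 4.51 normalized counts, which covers counting error only. Figures were drawn with matplotlib 3.10.9.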

Additional observations from a re-analysis of the deposited data

Results flagged for a closer look

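The changes with time in organoids differed between genotypes by a test of the difference itself (limma interaction, adjusted over all genes). Between Cdh1F/F;Trps1F/F and Cdh1F/F;Trps1+/+, the difference of log2 changes from day 14 to day 28 was 1.57 for Rrm2, 1.47 for Gmnn, 1.41 for Mcm10, 1.14 for Prim1, 1.09 for Uhrf1, 1.02 for Ccne1 and 0.90 for Rfc4. Between Cdh1F/F;Trps1F/F and Cdh1+/F;Trps1F/F it was 1.46 for Tk1, 1.37 for Cdc45, 1.19 for Ccne1, 1.16 for Rfc5, 1.12 for Mcm5, 1.06 for Chaf1a and 0.90 for Prim1.

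Among the Trps1F/F mice, 18LCO052 stood apart from the other mice for Orc6, at 10.10 on the log2 scale, with a gap to the nearest mouse of 0.791 of the whole range. This was looked for in 9 genes already picked by their p in the tumor comparisons, so how often chance would flag such a gene is not known. Orc6 was picked in subgroup 3, to which the tumor of 18LCO052 belongs. The gap also depends on averaging by mouse. Mouse 18LCO025 had 9.53 in its tumor of subgroup 3, averaged with 8.74 and 8.61 in its other tumors.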

How the results depend on the processing

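Of 187 recomputed counts of called replication genes over 17 comparisons, 168 stayed within 1.5 times the count reported, and the 19 that moved further all left out a library or mouse. Leaving out each in turn gave 12 to 15 calls in Cdh1F/F;Trps1F/F against Cdh1F/F;Trps1+/+ at day 14, 9 to 12 and 13 to 23 in Cdh1+/F;Trps1F/F against Cdh1F/F;Trps1+/+ at days 14 and 28, 5 to 11 between the days in Cdh1+/F;Trps1F/F and 0 to 6 in Cdh1F/F;Trps1+/+, 13 to 23 and 19 to 29 for the interactions with Trps1 and Cdh1, and 0 to 7 in tumor subgroup 1. Of the values for named genes, 1070 kept direction and side of the threshold, 61 fell short of it and 0 reversed. The replicate block gave 39 calls with TSA, 35 with sgTrps1 and 36 between the days in Cdh1F/F;Trps1F/F, and of the named genes it ended the call of Rfc2 in TSA. With sgTrps1 the crossed pairing, added after seeing the data, gave 37 calls. The median of all genes moved to 0.25 with no filter in TSA (the 43 genes stayed at -0.92), to -0.10 and 0.15 under quantile normalization at day 28 for Cdh1+/F;Trps1F/F against Cdh1F/F;Trps1+/+ and Cdh1F/F;Trps1F/F against Cdh1+/F;Trps1F/F (the 43 at -0.57 and 1.59), and to 0.12 in subgroup 2 with libraries shifted to a common median (the 43 at 0.14). With 2 libraries per group, leaving 1 out assumes that the other varies like the rest. In Cdh1F/F;Trps1F/F against Cdh1F/F;Trps1+/+ at day 28, the standard error was widest for Orc1 (0.325) and Ccne2 (0.268), which are among the genes with the lowest counts.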
